A study of Mus musculus with 24 samples.

Results

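The 8 genes described here had among the largest rises with isoproterenol in bone marrow-derived macrophages, and they were chosen by that rise. They are listed in the gene-level array table as CYTIP, 2310016C08RIK, CAV1, COL18A1, LYZL4, DMKN, 2310045A20RIK and D330014H01RIK, and were found by those names among 18132 genes, of which 10111 were bright enough to be tested. The current symbol of 2310016C08RIK is Hilpda and that of 2310045A20RIK is Sel1l3, and both are used below. The study cultured macrophages from the marrow of female Balb/c mice aged 8 to 10 weeks and kept them for 24 h with isoproterenol, with interleukin-4 (IL-4), with interferon-gamma (IFN-gamma) or in medium alone. IL-4 and IFN-gamma served as the references for alternative and classical activation, and the question was where macrophages stimulated through beta-adrenergic receptors lie between them. Each of the 4 groups held 6 Illumina arrays, 2 from each of 3 experiments. The concentrations of the activators are not given in the sources used here. Nor is it stated whether the 2 arrays of an experiment came from separate cultures or animals, so the 2 were averaged. The main fit removes differences in level between experiments. Its p-values therefore rest on how the differences between groups vary over the 3 experiments.

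Isoproterenol is a synthetic agonist of the beta-adrenergic receptors, through which adrenaline and noradrenaline act on macrophages. These receptors couple to the stimulatory G protein and adenylyl cyclase, which raises cyclic AMP (cAMP). Protein kinase A and the transcription factor CREB then switch on genes such as Fos, Crem and Dusp1. The 8 genes belong to no single pathway. Cytip encodes a leukocyte scaffold that binds cytohesins, which are activators of ARF GTPases, and in human dendritic cells it is known to weaken integrin adhesion. Hilpda encodes a small lipid droplet protein induced by hypoxia-inducible factors that inhibits the triglyceride lipase made from Pnpla2. Cav1 encodes the main coat protein of caveolae, which are small invaginations of the plasma membrane. Col18a1 encodes a basement membrane collagen whose C-terminal fragment is endostatin. Lyzl4 encodes a lysozyme-like protein described mainly in the male reproductive tract, and Dmkn encodes dermokine, a secreted protein of keratinocytes.

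Quantities are given on 2 scales. A level is the authors' quantile-normalized intensity, and a group's level is the mean ± SD of the 3 experiments. A difference or fold is computed on log2 values after a background step, which makes folds of dim genes larger than the ratio of their levels. The background of the arrays lay at a normalized intensity of 137, and a value above 149 was taken as above background. All 8 genes passed the filter of 6 arrays above this limit. The 6 isoproterenol arrays alone would have been enough for that, but each of the 8 was also above it on at least 5 of the 6 arrays in medium. Across all arrays 9230 to 9307 genes were above the limit. The 2 arrays of an experiment correlated at 0.997 or more over all 18132 genes (log2 of the levels) except for IFN-gamma in experiment 1, at 0.984. The labelled cell type was checked against its markers: 10 of 10 macrophage markers were above the limit on enough arrays to be tested. With isoproterenol no gene was called among the tested markers of T cells (2 genes), B cells (1), neutrophils (5), dendritic cells (2) and mast cells (1).

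The slides on which the arrays lay limit the comparison with medium. All groups of experiment 1 shared slide 1, whereas in experiments 2 and 3 the isoproterenol and medium arrays lay on different slides. IFN-gamma and IL-4 arrays shared a slide in every experiment. The isoproterenol arrays lay on that slide in experiments 1 and 3 and on a different one in experiment 2. The difference between isoproterenol and medium on slide 1 is therefore the difference of experiment 1.

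With isoproterenol the levels of all 8 genes lay above those in medium on every array. The groups of 6 and 6 arrays did not overlap for any of the 8, and 1.81% of all tested genes had isoproterenol arrays above medium arrays without overlap. Since the rise chose the genes, nothing is read from that count and no test is given. Their median difference was 1.06 (log2), and the median of all 10111 tested genes was -0.001. Cytip was ranked 1 by size of the rise, Hilpda 3, D330014H01RIK 5, Cav1 6, Lyzl4 7, Col18a1 8, Sel1l3 13 and Dmkn 15. The last of them, Dmkn, rose by 0.78 (log2) and the next gene, Il1rn, by 0.77. Without the background step Cytip and Hilpda kept ranks 1 and 3, Lyzl4, D330014H01RIK, Col18a1, Cav1 and Sel1l3 were ranked 5, 6, 9, 10 and 12, and Dmkn was ranked 49. The genes ranked between them that are not among the 8 were Pf4, Ccl24, Ppbp, Fos, LOC100048845, Cd28 and C5ar1, from 0.78 to 1.37 (log2). In RNA from a whole culture, more RNA per cell and more cells that make it cannot be told apart. Platelet chemokine genes moved with the 8: Pf4 was 2.58-fold higher with isoproterenol (limma adjusted p = 0.0028) and Ppbp 2.03-fold higher (adjusted p = 0.0072). The summed level of the 5 platelet markers ran from 2007 to 3484 on the medium arrays and from 4287 to 7696 on the isoproterenol arrays. Pf4 held most of that sum, at 2175 in medium and 5390 with isoproterenol, and Ppbp stood at 173 and 290. Of the other platelet markers, Gp1bb was above the limit on no array and Itga2b and Gp9 on 4 of 24.

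**Figure D1:**
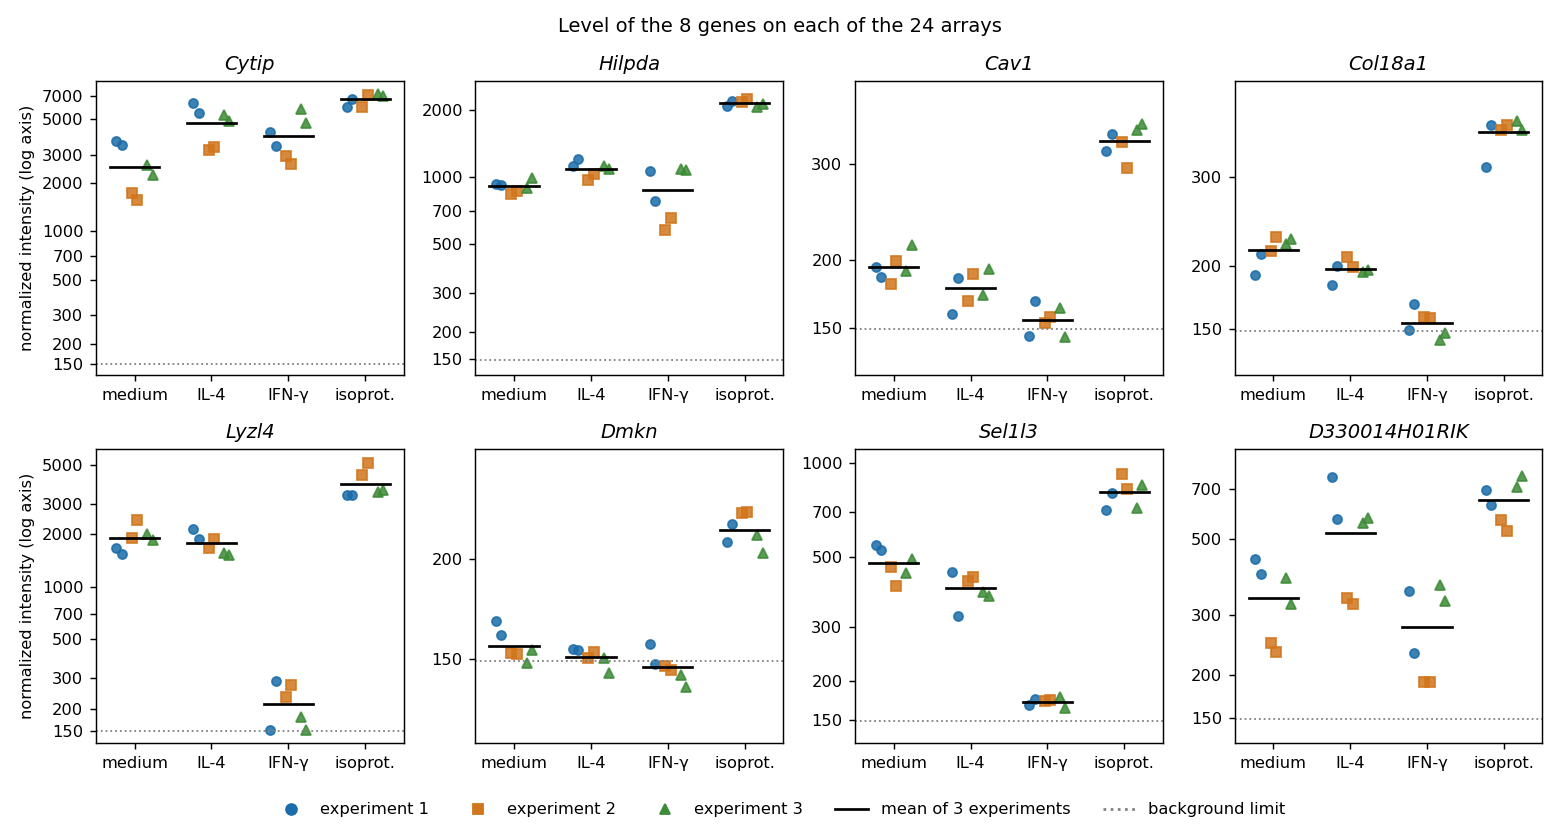
Level of each of the 8 genes (normalized intensity, log axis, a separate range in each panel) on every array, grouped by activator; symbols give the experiment, bars the mean of the 3 experiments and the dotted line the background limit. In each panel the 6 isoproterenol arrays sit above the 6 medium arrays, and for Lyzl4 and Sel1l3 the IFN-gamma arrays lie far below the other groups.

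Because cAMP acts largely through CREB, the promoters of the 8 genes were searched for the cAMP response element, and for the core of the hypoxia response element because of Hilpda. RefSeq windows of 300 bases, from 250 before to 50 after an annotated start on GRCm38.p6, were held for 6 of the 7 genes with a current symbol, in 13 windows. The full element TGACGTCA was in none of the 13 windows, against 1.79% of all 32851 promoter windows. The short element TGACG, on either strand, was in 4 of the 13 windows and in 20.8% of all windows, and those 4 windows belonged to Hilpda, Lyzl4 and Dmkn. The hypoxia core ACGTG, on either strand, was in 4 windows, of Hilpda, Cav1 and Lyzl4, and in 19.6% of all windows. Windows of 1 gene can overlap, as the pair of Hilpda does, so 1 of its short elements is counted in both windows. By gene, the short element was in 3 of 6 and in 23.0% of all genes with a window. The hypoxia core was in 3 of 6 and in 21.8%. The sequences below are the window of Cytip, the gene with the largest rise, which held no match, and for each of the 3 genes with a short element the window that holds it, for Hilpda the one with 2 matches. Each is written 5′ to 3′ on the gene's strand, with the matches in capitals.

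Cytip (chr2:58160073-58160372, minus strand): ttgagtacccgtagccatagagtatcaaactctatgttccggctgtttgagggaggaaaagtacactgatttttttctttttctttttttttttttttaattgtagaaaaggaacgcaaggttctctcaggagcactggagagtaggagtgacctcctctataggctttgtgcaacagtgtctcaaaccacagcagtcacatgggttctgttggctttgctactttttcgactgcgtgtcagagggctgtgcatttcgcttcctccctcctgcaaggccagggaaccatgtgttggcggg
Hilpda (chr6:29272376-29272675, plus strand): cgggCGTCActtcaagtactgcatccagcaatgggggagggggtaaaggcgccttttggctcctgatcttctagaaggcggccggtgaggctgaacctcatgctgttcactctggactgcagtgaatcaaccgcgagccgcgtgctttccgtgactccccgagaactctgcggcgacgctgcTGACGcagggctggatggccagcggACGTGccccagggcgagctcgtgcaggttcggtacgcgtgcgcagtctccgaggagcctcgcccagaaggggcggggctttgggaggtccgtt
Lyzl4 (chr9:121586912-121587211, minus strand): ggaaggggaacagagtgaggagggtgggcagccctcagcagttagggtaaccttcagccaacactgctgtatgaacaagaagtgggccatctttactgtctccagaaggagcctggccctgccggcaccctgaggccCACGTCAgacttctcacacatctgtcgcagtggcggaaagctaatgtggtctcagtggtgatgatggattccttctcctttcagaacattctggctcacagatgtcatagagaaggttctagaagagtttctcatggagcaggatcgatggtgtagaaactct
Dmkn (chr7:30776155-30776454, plus strand): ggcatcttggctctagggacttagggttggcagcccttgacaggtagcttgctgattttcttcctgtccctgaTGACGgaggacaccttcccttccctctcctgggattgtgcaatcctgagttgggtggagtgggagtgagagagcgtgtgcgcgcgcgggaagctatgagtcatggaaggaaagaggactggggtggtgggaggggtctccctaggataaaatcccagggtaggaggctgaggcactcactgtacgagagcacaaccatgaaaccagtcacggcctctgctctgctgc

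In the Hilpda window the short element has its first base at position -246 from the start site, on the reverse strand, and again at -68, on the forward strand, and the hypoxia core begins at -43. In the Lyzl4 window the short element and the hypoxia core overlap on the reverse strand, with first bases at -111 and -113. In the Dmkn window the short element begins at -177 on the forward strand. A match is a string of letters, and binding was not measured on these arrays.

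Cytip, the cytohesin-binding scaffold, was the gene whose level in medium varied most between experiments. In medium its lowest, median and highest levels over the 6 arrays were 1562, 2425 and 3639, and with isoproterenol they were 5962, 6848 and 7219. With IL-4 they were 3228, 5075 and 6302, and with IFN-gamma 2628, 3788 and 5789. The isoproterenol arrays were therefore packed into a narrow range above medium, while IL-4 and IFN-gamma arrays spread over most of the range between, and the highest IL-4 array passed the lowest isoproterenol array. The group levels were 2540 ± 954 in medium, 4760 ± 1329 with IL-4, 3949 ± 1253 with IFN-gamma and 6658 ± 390 with isoproterenol (SD, n = 3). The coefficient of variation between experiments was 37.6% in medium and 5.85% with isoproterenol. The rise with isoproterenol was 2.80-fold, and by experiment it was 0.85, 2.03 and 1.58 (log2). Experiment 1 had the highest level in medium, 3547, and the smallest rise, and experiment 2 the lowest, 1649, and the largest rise, while the isoproterenol levels were 6344 and 6537. The medium level enters both quantities.

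Hilpda, the lipid droplet protein gene, had the most even level with isoproterenol, with a coefficient of variation between experiments of 2.82%. Its lowest, median and highest levels were 842, 905 and 988 in medium and 2078, 2156 and 2263 with isoproterenol, with group levels of 906 ± 46.7 and 2158 ± 60.8 (SD, n = 3). With IL-4 they were 974, 1103 and 1209, and with IFN-gamma 578, 923 and 1087. No array of another group came near the isoproterenol arrays, and the IFN-gamma arrays were spread both above and below medium. The rise was 2.50-fold, with 1.28, 1.46 and 1.23 (log2) in experiments 1, 2 and 3.

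Cav1 and Col18a1, the genes of the caveolar coat and of collagen XVIII, were dim in every group and showed a similar pattern. Cav1 had lowest, median and highest levels of 181, 192 and 213 in medium, 159, 179 and 192 with IL-4, 144, 155 and 168 with IFN-gamma, and 295, 335 and 355 with isoproterenol. For Col18a1 the 3 values were 192, 218 and 229 in medium, 183, 198 and 208 with IL-4, 143, 154 and 169 with IFN-gamma, and 314, 376 and 387 with isoproterenol. In both genes medium and IL-4 arrays overlapped, the isoproterenol arrays stood above all others, and only 4 of the 6 IFN-gamma arrays were above background. The Cav1 rise was 2.09-fold, with 1.10, 1.01 and 1.08 (log2) by experiment. The Col18a1 rise was 2.04-fold, with 1.06, 1.01 and 1.00. These were the most even rises of the 8: their range over the experiments was 0.09 and 0.06 (log2). Without the background step each rise was 1.70-fold. Endothelial cells and fibroblasts also make both proteins, and no endothelial or fibroblast marker was called with isoproterenol. Of 9 endothelial markers 6 were tested, Cdh5 and Emcn were above the limit on no array, and Pecam1, Tie1 and Egfl7 on 10, 14 and 18 of 24. Vwf was above it on all 24, at 2235 in medium and 2258 with isoproterenol, and held most of the list's summed level, which ran from 3150 to 3660 on the medium arrays and from 3113 to 3778 on the isoproterenol arrays. None of 8 fibroblast markers was bright enough to be tested, Col3a1, Dcn, Lum, Pdgfra and Thy1 were above the limit on no array, and the sums were 1061 to 1111 and 1091 to 1112.

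Lyzl4, the lysozyme-like gene, had the widest range of levels across the activators. Its lowest, median and highest levels were 1547, 1886 and 2423 in medium, 1520, 1775 and 2156 with IL-4, and 3347, 3527 and 5149 with isoproterenol. With IFN-gamma they were 150, 206 and 287. The IFN-gamma arrays thus began at the background limit and lay below all others, the isoproterenol arrays lay above all others, and medium and IL-4 arrays overlapped. The group levels were 1903 ± 280 in medium, 1780 ± 240 with IL-4, 212 ± 44.7 with IFN-gamma and 3882 ± 764 with isoproterenol (SD, n = 3). The rise with isoproterenol was 2.07-fold, with 1.09, 1.16 and 0.90 (log2) by experiment. Against IFN-gamma, isoproterenol was 28.5-fold higher after the background step and 18.7-fold higher without it.

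Dmkn, the dermokine gene, was near background except with isoproterenol. Its lowest, median and highest levels were 148, 153 and 167 in medium, 144, 152 and 154 with IL-4, 138, 146 and 156 with IFN-gamma, and 203, 218 and 229 with isoproterenol. All isoproterenol arrays were clearly above background, 5 of 6 arrays were in medium and with IL-4, and 1 of 6 with IFN-gamma. The rise was 1.72-fold, or 1.40-fold without the background step, with 0.63, 0.94 and 0.77 (log2) by experiment. Of 8 keratinocyte and epithelial markers in the table, 3 were bright enough to be tested and none was called with isoproterenol, and Sbsn and Krt14 were above the limit on no array. Cdh1 was above it on 22 of 24 arrays and Krt10 on all 24, at 384 in medium and 396 with isoproterenol. The summed level of the list ran from 1340 to 1423 on the medium arrays and from 1365 to 1429 on the isoproterenol arrays.

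Sel1l3, named for its similarity to the endoplasmic reticulum protein SEL1L, stood at lowest, median and highest levels of 406, 479 and 549 in medium and 324, 404 and 450 with IL-4. The values were 164, 174 and 178 with IFN-gamma and 711, 817 and 927 with isoproterenol. The isoproterenol arrays were above all others and the IFN-gamma arrays formed a tight group below all others, with a coefficient of variation between experiments of 0.88%. Those IFN-gamma levels lay not far above the limit of 149. The background of 137 makes up most of them, which keeps that coefficient small. The rise was 1.80-fold, with 0.55, 1.15 and 0.84 (log2) by experiment, so that the value on slide 1 was the smallest of the 3.

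D330014H01RIK carries only a clone name in the table. RefSeq lists that name as a synonym of Dnah2, an axonemal dynein heavy chain gene, but Dnah2 has a row of its own in the table under its older name DNAHC2, so the clone name is kept here. Its lowest, median and highest levels were 234, 353 and 438 in medium, 322, 563 and 758 with IL-4, 191, 282 and 367 with IFN-gamma, and 529, 661 and 763 with isoproterenol. IL-4 and isoproterenol arrays overlapped widely, and in experiment 1 the difference between them was 0.01 (log2). Experiment 2 had the lowest level in all 4 groups. The rise over medium was 2.24-fold, with 0.77, 1.48 and 1.24 (log2) by experiment. The DNAHC2 row was near background, between 144 and 227 on the 24 arrays, and was 0.62 (log2) higher with isoproterenol, rank 36.

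**Figure D2:**
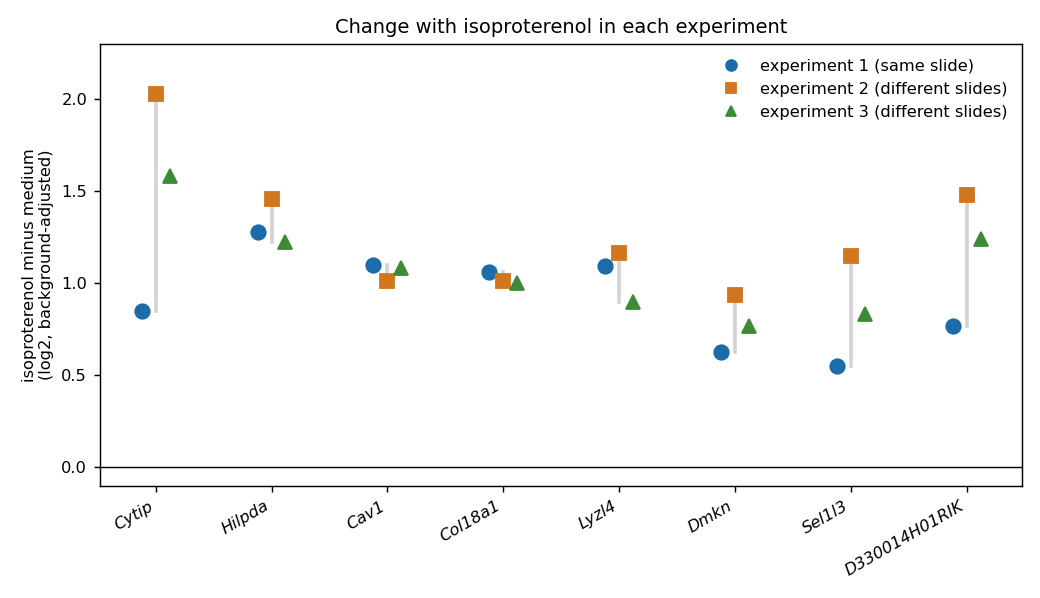
Difference between isoproterenol and medium (log2, background-adjusted) for each gene in each of the 3 experiments; both groups shared a slide only in experiment 1, and grey lines span the 3 values. All 24 differences are above 0; the 3 values nearly coincide for Cav1 and Col18a1 and are farthest apart for Cytip, at 0.85, 2.03 and 1.58.

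On slide 1 alone, where no difference between slides enters, the rises ran from 0.55 for Sel1l3 to 1.28 for Hilpda (log2), with a median of 0.955. Cytip, D330014H01RIK, Sel1l3 and Dmkn had their smallest rise there, whereas Cav1 and Col18a1 had their largest. Cytip was 1.80-fold higher there, against 2.80-fold over the 3 experiments, and D330014H01RIK 1.70-fold, against 2.24-fold. The part of the slides in the larger rises of experiments 2 and 3 was not tested.

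The difference between IFN-gamma and IL-4 uses none of the arrays by which the genes were chosen, and it was tested. Its p-values come from the fit to all 4 groups, so the isoproterenol and medium arrays do enter the estimate of the spread. IFN-gamma-treated macrophages had lower levels than IL-4-treated macrophages for 6 of the 8 genes and higher levels for none, and 2 did not pass the test. Among all tested genes 25.3% were lower and 18.6% higher with IFN-gamma than with IL-4. Lyzl4 was 12.9-fold lower with IFN-gamma (8.62-fold without the background step), a log2 difference of -3.69 ± 0.16 (SE, limma adjusted p = 7.9e-09). Sel1l3 was 3.17-fold lower, with -1.67 ± 0.10 (adjusted p = 8.3e-08), and D330014H01RIK 2.18-fold lower, with -1.12 ± 0.15 (adjusted p = 9.7e-05). The arrays of the groups did not overlap for Lyzl4, Sel1l3 and Col18a1, where 15.8% of all tested genes had IFN-gamma arrays below IL-4 arrays without overlap. All 3 experiments had the same direction for the 6 genes. The matrix and membrane genes differed less: Col18a1 was 1.51-fold lower (limma adjusted p = 7.6e-05) and Cav1 1.26-fold lower (adjusted p = 9.5e-04), and both are uncertain in size because 2 of the 6 IFN-gamma arrays were at background. On slide 1 alone neither Col18a1 nor Cav1 passed (limma adjusted p = 0.087 and 0.36). Hilpda was 1.32-fold lower (adjusted p = 0.041). That call was lost with only the groups compared (limma adjusted p = 0.053), where 5 of the 8 genes passed. It was also lost without experiment 1 (0.17), without experiment 2 (0.15), with no replicate block (0.092) and on slide 1 alone (0.12). The same held without replicate 2 of IFN-gamma in experiment 1 (0.13), an array of the pair that correlated least. Cytip was 1.22-fold lower, with -0.29 ± 0.19 (adjusted p = 0.27), and differed in direction between experiments at -0.66, -0.25 and 0.05. It passed with slide and experiment as blocks (limma adjusted p = 0.028) and on slide 1 alone (0.011). Both of these fits treat the 2 arrays of an experiment as independent, and slide 1 alone holds only experiment 1. Their p-values therefore do not have the 3 experiments as units. Dmkn, at background with IFN-gamma, differed by -0.08 ± 0.06 (adjusted p = 0.32).

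The comparisons of IL-4 and IFN-gamma with medium share the medium arrays with the rise that chose the genes, so the 3 differences of a gene are not independent of each other. With IL-4, Cytip and D330014H01RIK were higher than in medium and no gene was lower, where 4.03% of all tested genes were higher and 3.75% lower. Cytip was 1.94-fold higher with IL-4 (log2 0.96 ± 0.19 SE, limma adjusted p = 0.011) and D330014H01RIK 1.65-fold higher (0.72 ± 0.15, adjusted p = 0.013). Both calls rest on the pairing by experiment and were lost without the replicate block (adjusted p = 0.11 and 0.40) and without experiment 3 (0.079 and 0.080), and that of Cytip also without experiment 2 (0.061). On slide 1 alone the call of D330014H01RIK was lost (limma adjusted p = 0.27) and that of Cytip was kept (0.045). Sel1l3 and Cav1 had differences of -0.33 and -0.21 (log2) that did not pass (limma adjusted p = 0.067 and 0.066). Hilpda at 0.29 (adjusted p = 0.31), Col18a1 at -0.19 (0.19), Lyzl4 at -0.10 (0.82) and Dmkn at -0.08 (0.56) did not pass either.

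With IFN-gamma 4 of the 8 genes were lower than in medium and 1 was higher, where 25.8% of all tested genes were lower and 17.3% higher. Lyzl4 was 13.7-fold lower (log2 -3.78 ± 0.16 SE, limma adjusted p = 7.8e-09) and Sel1l3 3.97-fold lower (-1.99 ± 0.10, adjusted p = 2.3e-08). Without the background step these were 9.19-fold and 2.78-fold. Col18a1 was 1.73-fold lower (adjusted p = 8.5e-06) and Cav1 1.45-fold lower (adjusted p = 2.5e-05), and for these 4 genes the IFN-gamma arrays lay below all medium arrays, as they did for 15.3% of all tested genes. Cytip went the other way and was 1.59-fold higher (log2 0.67 ± 0.19, adjusted p = 0.016). That rise was 0.09, 0.78 and 1.14 (log2) in experiments 1, 2 and 3, and the call was lost without experiment 2 (adjusted p = 0.057), without experiment 3 (0.18) and on slide 1 alone (0.68). D330014H01RIK at -0.40 and Dmkn at -0.17 (both adjusted p = 0.052) and Hilpda at -0.11 (0.58) did not pass. With slide and experiment as blocks D330014H01RIK and Dmkn passed (limma adjusted p = 0.0019 and 0.01), but that fit treats the 2 arrays of an experiment as independent. They also passed with single arrays and a random block (0.025 and 0.01). With averaged arrays D330014H01RIK passed without experiment 3 (limma adjusted p = 0.03) and with probes in place of genes (0.045). Dmkn passed with the limit on at least 12 arrays (0.047). Each missed the threshold under all its other alternatives. For Hilpda the sign differed between experiments.

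**Figure D3:**
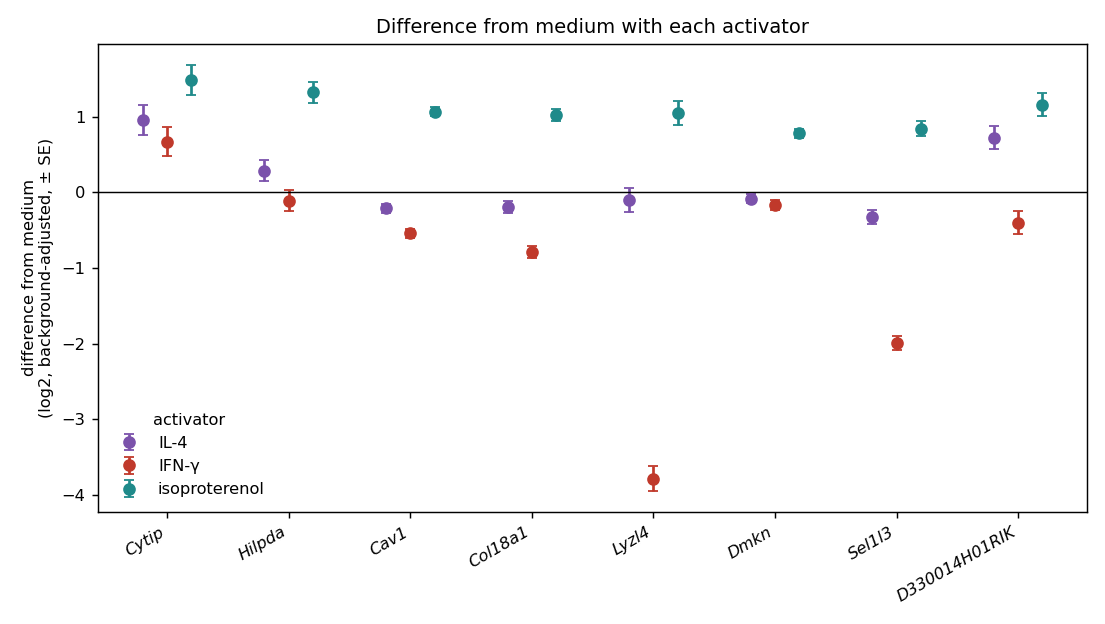
Difference from medium (log2, background-adjusted, mean ± SE of the fit, n = 3 experiments) for each gene with IL-4, IFN-gamma and isoproterenol; all 3 share the medium arrays, and the isoproterenol values chose the genes. Cytip lies above 0 with all 3 activators, D330014H01RIK with IL-4 and isoproterenol, and Lyzl4 and Sel1l3 fall to -3.78 and -1.99 with IFN-gamma.

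Ordered by the mean level of the 3 experiments, isoproterenol came first for all 8 genes. Its arrays stood apart from those of the second group for Hilpda, Cav1, Col18a1, Lyzl4, Dmkn and Sel1l3, and overlapped with IL-4 for Cytip and D330014H01RIK. In experiment 1 D330014H01RIK stood at 664 with IL-4 and 661 with isoproterenol, and Cytip was 0.105 (log2) higher with isoproterenol. Both had their largest difference from IL-4 in experiment 2, where the slides differed, at 0.883 for D330014H01RIK and 0.995 for Cytip. The groups in the middle of the order overlapped with each other for every gene. IFN-gamma came last for 7 genes, apart from the group above it for Col18a1, Lyzl4 and Sel1l3, and medium came last for Cytip. Relative to IL-4, isoproterenol was from 1.36-fold higher for D330014H01RIK to 2.42-fold higher for Cav1. Without the background step the range was from 1.30-fold for D330014H01RIK to 2.17-fold for Lyzl4, with Cav1 at 1.86-fold. These are descriptions, since the isoproterenol arrays chose the genes.

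Across the 12 values (4 groups in 3 experiments, with the mean of each experiment subtracted), the 8 genes fell into differing degrees of likeness, given as Pearson's r with no test since all share the rise with isoproterenol. Cav1 and Col18a1 were most alike at 0.986, then Cav1 and Dmkn at 0.973 and Lyzl4 and Sel1l3 at 0.971. Cytip was least like the others, with 0.259 to Lyzl4 and 0.337 to Sel1l3. Among all other tested genes, the 3 closest to Cytip were Ahrr at 0.949, Zfp36 at 0.917 and LOC100047707 at 0.899. Closest to Hilpda were Prl2c3 at 0.962, H2ac18 at 0.960 and Isy1 at 0.946. For Cav1 they were Emb at 0.986, H2bc4 at 0.979 and Nr1d2 at 0.974. Col18a1 shared H2bc4 at 0.975 and Nr1d2 at 0.974 with Cav1, after Pgap6 at 0.978. Dmkn was closest to Ppm1l at 0.983, Prl2c3 at 0.974 and Emb at 0.973. Lyzl4 had 1110008P14Rik at 0.997, Taf9b at 0.995 and Adssl1 at 0.994, and Sel1l3 had Snx14 at 0.994, Unc13b at 0.992 and Appl2 at 0.991. D330014H01RIK was closest to the DNAHC2 row at 0.966, then Csf2rb2 at 0.965 and Rbms1 at 0.957.

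Calls among the pathway genes around the 8 with isoproterenol lay mainly in 1 of 9 lists, the targets of cAMP and CREB. Of 102 tested genes in 9 lists, 5 were higher and 2 lower, where 1.01% of all tested genes were higher and 0.267% lower, and their median difference was 0.02 (log2). Targets of cAMP and CREB held 4 of the 5 rises, among 16 tested genes with a median of 0.18 (log2). Fos, an immediate early transcription factor gene, was 1.88-fold higher (limma adjusted p = 9.8e-04) and Dusp1, a phosphatase of MAP kinases, 1.69-fold higher (adjusted p = 0.002). Cebpb, a transcription factor of macrophages, was 1.30-fold higher (adjusted p = 0.036) and Crem, a cAMP-responsive modulator, 1.25-fold higher (adjusted p = 0.047). Mean levels in medium, with IFN-gamma and with isoproterenol were 766, 1267 and 1348 for Fos and 910, 1200 and 1488 for Dusp1. They were 4695, 6306 and 6090 for Cebpb and 167, 251 and 191 for Crem, so those with IFN-gamma were above medium too. Of the list's genes too dim to test, Nr4a1, Sik1 and Pde3b were above the limit on no array. Nr4a3, Pde4b, Areg and Gem were above it on 1 of 24 and Ppargc1a on 3. Among 20 tested genes of beta-adrenergic signalling, Gnas, the stimulatory G protein alpha subunit, was 1.22-fold lower (adjusted p = 0.039).

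Of 12 tested cytohesin and adhesion genes, no cytohesin gene passed. Cyth1 differed by 0.39 (log2, limma adjusted p = 0.15), Cyth2 by 0.08 (0.68), Cyth3 by -0.01 (0.98) and Cyth4 by -0.12 (0.70). In the adhesion part of that list, Itgam, the integrin alpha M, was 1.30-fold higher (adjusted p = 0.011) and Icam1, an integrin ligand, 1.39-fold lower (adjusted p = 0.0077). None of the 3 tested caveolar genes passed: Cav2 differed by 0.27 (log2, adjusted p = 0.37), Pacsin2 by 0.04 (0.91) and Pacsin3 by 0.03 (0.94), and Cavin1, Cavin2 and Cavin3, which build caveolae with Cav1, were above background on at most 1 array each and were not tested. The hypoxia and lipid genes around Hilpda did not pass in any of 16 and 14 tested cases. Among the hypoxia targets, Vegfa, the vascular growth factor gene, differed by 0.50 (log2, limma adjusted p = 0.18), Ankrd37 by -0.21 (0.68), P4ha1 by 0.20 (0.20) and the glucose transporter gene Slc2a1 by 0.16 (0.64). Among the lipid droplet genes, the lipase gene Mgll differed by -0.34 (log2, limma adjusted p = 0.23), Acsl3 by 0.20 (0.31), Bscl2 by 0.14 (0.43) and G0s2 by -0.09 (0.81). No gene passed among 3 lysozymes, where Lyzl6 differed by -0.06, Lyz1 by 0.03 and Lyz2 by -0.004 (log2). Nor did any of 5 basement membrane genes, where Agrn differed by 0.17, Lama4 by -0.13, Col15a1 by -0.10 and Lamb2 by 0.05 (log2). In the list of SEL1L and endoplasmic reticulum degradation none of 13 passed, and Sel1l differed by 0.17, Herpud1 by -0.15, Os9 by 0.13 and Edem1 by -0.07 (log2). The 7 calls fell to 4 without the replicate block, to 1, 2 and 2 without experiments 1, 2 and 3, and to 0 on slide 1 alone, where over all 10111 tested genes the count for isoproterenol against medium was 0 as well.

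**Figure D4:**
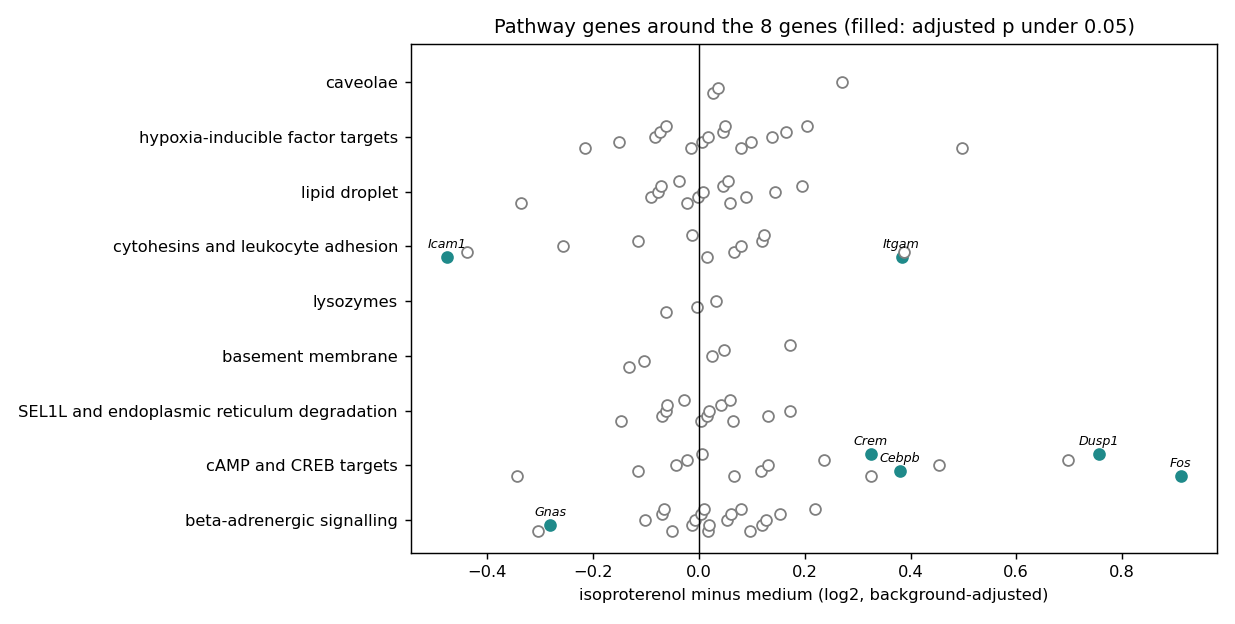
Difference between isoproterenol and medium (log2, background-adjusted) for the 102 tested genes of 9 pathway lists, 1 point per gene; filled points passed an adjusted p of 0.05 over all tested genes, and vertical offsets only separate points. The cAMP and CREB list holds 4 of the 5 rises, led by Fos at 0.91 and Dusp1 at 0.76, while the lists around Cav1, Hilpda, Lyzl4, Col18a1 and Sel1l3 have no filled point.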

How the data were processed

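Total RNA of cultured macrophages was hybridised to 24 Illumina MouseRef-8 v2.0 arrays, and per the submitters' processing notes GenomeStudio was used. The authors deposited a table of non-normalized probe intensities and a table of gene-level normalized intensities (18132 genes). The latter hold nearly the same distribution on each array, as quantile normalization leaves it: at 98.9% of ranks the coefficient of variation across arrays was under 1%. Gene values were background-corrected with normexp in limma 3.58.1 (R 4.3.3) with an offset of 50 and taken to log2. Genes above the background limit (149.1, from a mode of 137.3 and an SD of 0.0727 on the log2 scale below it) on at least 6 arrays were tested, 10111 in all. For each activator the 2 arrays of an experiment gave 1 averaged value, and a model with group and experiment was fitted to the 12 values, with Benjamini-Hochberg adjustment over all tested genes and a threshold of 0.05, two-sided. The model was tested on simulated data.

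The experiment number in the labels was taken to pair the groups. Deviations from the group means correlated at 0.027 to 0.775 for the same number and at most at 0.513 for different numbers. These values overlap, so they cannot establish the pairing. Slides were read from the file headers. Per the probe table, the levels of 5 of the 8 genes matched a single probe within a root mean square of 0.01 (log2), and those of Hilpda, Col18a1 and Dmkn matched none. Of the gene names, 16944 matched a current symbol, 2639 of them through a synonym. All 8 genes are described. In each pathway list the genes that passed were named, or else up to 4 with the largest change. The cavin and cytohesin genes and the cAMP targets too dim to test were named besides. For each of the 8, the 3 genes with the highest correlation were named. The 8 genes and the lists were chosen with earlier results of these data known. Alternatives covered the background step, the dim-gene limit, averaging, the experiment term, slide, the samples fitted, left-out experiments and probes in place of genes. The number of arrays limits the precision. Promoter windows are RefSeq's, on GRCm38.p6, and no window of Sel1l3 was used here.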

Additional observations from a re-analysis of the deposited data

Results flagged for a closer look

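Among the 32 sets of 6 arrays (8 genes in 4 groups), 2 held an array far from the others by Dixon's test. For independent arrays chance gives about 1 in 20. Each set here holds 2 arrays from each of 3 experiments, so that rate may not hold. For Col18a1 with isoproterenol, replicate 1 of experiment 1 stood at 314 while the next array stood at 372, a gap of 0.806 of the group's range. It still lay above every array of the other groups. For Dmkn with IL-4, replicate 2 of experiment 3 stood at 144 while the next array stood at 150, a gap of 0.64 of the range. The Dmkn values lie near the background limit. Outside this test, the 2 arrays of IFN-gamma in experiment 1 differed most for Lyzl4, by 0.93 (log2 of the levels, without the background step), and for D330014H01RIK, by 0.60, against medians over all pairs of 0.19 and 0.12.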

How the results depend on the processing

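The median rise with isoproterenol was 1.06 (log2) and became 0.87 with no background step and 0.955 on slide 1 alone; leaving out an experiment gave 1.02 to 1.09. The count of genes called for IFN-gamma against IL-4 was 6 and ran from 4 on slide 1 alone to 7 with slide and experiment as blocks. The 4 on slide 1 alone include Cytip, which is not among the 6. The calls of Hilpda, Cav1 and Col18a1 were lost there (limma adjusted p = 0.12, 0.36 and 0.087). For IL-4 against medium the count of 2 became 0 with no replicate block, 1 on slide 1 alone and 0 to 2 with an experiment left out. For IFN-gamma against medium 5 became 3 on slide 1 alone, without the calls of Cytip and Cav1 (limma adjusted p = 0.68 and 0.071). The count became 7 with slide and experiment as blocks or with single arrays and a random block. The 7 pathway calls became 4 with no replicate block, 0 on slide 1 alone and 1 to 2 with an experiment left out. Signs turned only for differences that passed no test: Hilpda, IFN-gamma against medium, ran from -0.277 to 0.098 with an experiment left out, and Lyzl4, IL-4 against medium, from -0.314 to 0.023, with 0.053 under slide and experiment blocks and 0.338 on slide 1 alone. The causes were not tested. Slide 1 alone and left-out experiments use fewer arrays. The fits on slide 1 alone and with slide and experiment as blocks treat the 2 arrays of an experiment as independent, so their counts do not have the experiments as units.

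Of the tested differences of single genes under these alternatives, 267 kept their call and direction, 12 gained a call, 19 lost one and 5 turned sign. Over all genes, calls for isoproterenol against medium numbered 129, then 285 with single arrays and a random block, 36 with no replicate block, 0 on slide 1 alone, 196 with only the groups compared, and 38, 12 and 38 without experiments 1, 2 and 3. For IL-4 against medium 786 became 447 with no replicate block, 147 on slide 1 alone, and 358, 419 and 467 without experiments 1, 2 and 3. On slide 1 alone IFN-gamma against IL-4 went from 4442 to 2198 and IFN-gamma against medium from 4362 to 2488. In the slide-blocked fit the isoproterenol values of experiment 2 and the medium values of experiment 3 have no weight. Probes in place of genes were run for the 5 matched genes only, since the other probes have no names here. Folds of dim groups depend on the background step.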
